A study of Mus musculus with 8 samples.

Results

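Interferon-stimulated genes are the genes that cells switch on after interferon binds its receptors. Here 47 of them were followed in mouse testis, chosen by name as known interferon-induced genes and matched through their Ensembl identifiers. They are 47 of the 55421 genes in each library, and all 47 passed the filter on low counts that left 26414 genes to test. They were split into 31 effectors best known from type I interferon, 4 transcription factors of the pathway and 12 GTPases best known from interferon gamma. The last class holds 6 guanylate-binding proteins (Gbp genes) and 6 immunity-related GTPases (Igtp, Irgm1, Irgm2, Iigp1, Ifi47 and Tgtp1).

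All 8 libraries were made from testis of wild-type male mice, with 2 libraries in each of 4 groups. The CTRL group received phosphate buffered saline as vehicle. The LPS group received a single intraperitoneal dose of lipopolysaccharide, a bacterial cell wall component sensed through Toll-like receptor 4. The LPS+DHEA group was also given dehydroepiandrosterone, a steroid precursor, 6 h after LPS, and the LPS+DHEA+Nb group was given DHEA with Nb23-bi at that time. The labels name Nb23-bi without describing it, and they give a second injection only for the last 2 groups. The sources used here do not state strain, age, doses or the time of collection. They also do not state whether the 2 libraries of a group came from separate animals, so every p-value measures the spread between libraries, which may be technical.

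Type I interferons (the alpha and beta proteins) signal through Ifnar1 and Ifnar2 to a complex that holds Stat2 and Irf9 and binds the interferon-stimulated response element (ISRE) in promoters. Interferon gamma signals through Ifngr1 and Ifngr2 to promoters that hold the gamma-activated sequence (GAS), and Irf1 carries the signal on. LPS can start the type I arm through Toll-like receptor 4, and many genes answer to both arms, so the classes are a convention and not a readout of which interferon was present.

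The promoters were read for 2 motifs. In the 250 bases before the start site, an ISRE core (GAAA, any 2 bases and GAAA again, on either strand) was found in 17 of the 34 members with a RefSeq promoter (50%) and in 936 of 27025 genes overall (3.46%). By class it was found in 8 of 21 type I effectors (38.1%), 1 of 4 transcription factors (25%) and 8 of 9 GTPases (88.9%). A GAS (TTCNNNGAA, which reads the same on both strands) was found in 4 of 21, 1 of 4 and 5 of 9 (55.6%), against 8.13% of all genes. Differences between the classes were not tested, and the counts leave out the 13 members with no promoter matched. A gene with several start sites was counted once if any of its promoters held the motif. No promoter was matched for Mx1, Mx2, Oas2, Dhx58, Usp18, Iigp1, Parp9, Parp14, Zbp1, Gbp6, Rtp4, Gbp9 and Ifi27.

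A few of these promoters are printed 5′ to 3′ on the strand of the gene, from RefSeq on GRCm38.p6, because they span the patterns found: ISRE alone (Isg15 and Stat2), both motifs (Gbp7 and Igtp) and neither (Herc6). Capitals mark every match to either motif, and positions count back from the base before the start site. Isg15 (chr4:156200819-156201068, minus strand) has 3 ISRE cores that overlap each other, starting at -78, -72 and -66. Stat2 (chr10:128270248-128270497, plus strand) has 1 at -222. Gbp7 (chr3:142530086-142530335, plus strand) has GAS matches at -106 and -87 and an ISRE core at -53. Igtp (chr11:58199306-58199555, plus strand) has a GAS at -45 just ahead of an ISRE core at -34. Herc6 is at chr6:57580742-57580991 on the plus strand.
Isg15: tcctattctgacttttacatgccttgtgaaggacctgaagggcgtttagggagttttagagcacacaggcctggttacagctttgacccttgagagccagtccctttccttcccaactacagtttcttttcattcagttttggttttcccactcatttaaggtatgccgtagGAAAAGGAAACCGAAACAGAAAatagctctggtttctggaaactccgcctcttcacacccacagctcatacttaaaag
Stat2: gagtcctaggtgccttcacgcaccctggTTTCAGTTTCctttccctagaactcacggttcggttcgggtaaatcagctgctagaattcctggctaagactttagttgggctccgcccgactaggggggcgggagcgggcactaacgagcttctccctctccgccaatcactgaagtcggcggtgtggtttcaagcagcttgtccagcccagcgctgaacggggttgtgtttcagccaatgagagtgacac
Gbp7: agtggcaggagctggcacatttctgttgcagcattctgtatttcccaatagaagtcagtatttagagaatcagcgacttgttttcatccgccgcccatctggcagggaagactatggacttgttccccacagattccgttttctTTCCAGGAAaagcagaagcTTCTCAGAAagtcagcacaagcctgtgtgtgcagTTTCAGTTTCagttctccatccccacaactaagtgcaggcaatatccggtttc
Igtp: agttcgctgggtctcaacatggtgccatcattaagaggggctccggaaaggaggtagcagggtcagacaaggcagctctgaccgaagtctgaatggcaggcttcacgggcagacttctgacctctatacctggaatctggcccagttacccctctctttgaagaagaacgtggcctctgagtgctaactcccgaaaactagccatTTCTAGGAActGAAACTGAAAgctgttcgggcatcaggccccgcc
Herc6: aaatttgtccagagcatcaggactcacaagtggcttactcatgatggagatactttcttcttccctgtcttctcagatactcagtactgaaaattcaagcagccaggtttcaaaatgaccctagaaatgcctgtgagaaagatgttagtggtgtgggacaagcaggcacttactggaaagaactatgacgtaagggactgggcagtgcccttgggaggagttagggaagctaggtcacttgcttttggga

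The pairing of the 2 motifs seen in Igtp was found in 3 of the 6 immunity-related GTPases. Tgtp1 had a GAS at -88 and an ISRE core at -77, and Irgm2 had them at -75 and -64, the same spacing as in Igtp. Irgm1 had ISRE cores at -30 and -24 and no GAS, Ifi47 had neither motif, and Iigp1 had no promoter matched. Bst2 had a GAS at -136 that overlaps an ISRE core at -130. These are matches of letters and do not show that a factor was bound.

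Library totals were 61.3 to 64.5 M counts, and 30142 to 30626 genes had a count above 0. The tissue label was checked against testis markers: the summed level of 10 germ cell genes was 13490 to 16430 CPM (counts scaled to the library total), and Leydig, Sertoli and peritubular myoid markers were all above 0 in every library. In bulk tissue, fewer cells of a type and less RNA per cell cannot be told apart.

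Many members lie next to each other in the genome (GRCm38). Gbp2, Gbp3, Gbp5 and Gbp7 lie at chr3:142493978-142638008, Gbp6 and Gbp9 at chr5:105077630-105293698, and the 4 IFIT genes at chr19:34550694-34650009. Irgm1, Tgtp1 and Ifi47 lie at chr11:48861968-49096974, and Igtp and Irgm2 at chr11:58199556-58222782. Apart from Mx2, which GENCODE lists as a polymorphic pseudogene, all are protein-coding, and counts were made per gene.

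A single vehicle library stands apart in the interferon-stimulated genes. CTRL 1 was the lowest of the 8 libraries for 34 of the 47 members (72.3%), against 12.1% of all genes tested. In the median, type I effectors were 2.06-fold higher in CTRL 2 than in CTRL 1, transcription factors 1.63-fold and GTPases 1.32-fold, while the median over all genes was 1-fold. Ratios between the libraries of a group were taken, here and below, after adding 0.1 CPM to each value. CTRL 2 was above CTRL 1 for 29 of 31 type I effectors and for 10 of 12 GTPases, against 49.7% of all genes. Leaving out CTRL 1 moved the log2 fold change in LPS versus CTRL by over 1.5 times, or turned its sign, for 34 of the 47 members, and leaving out CTRL 2 did so for 36, so values without each CTRL library are given for the class medians and, where they moved that far, for the members described.

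**Figure D1:**
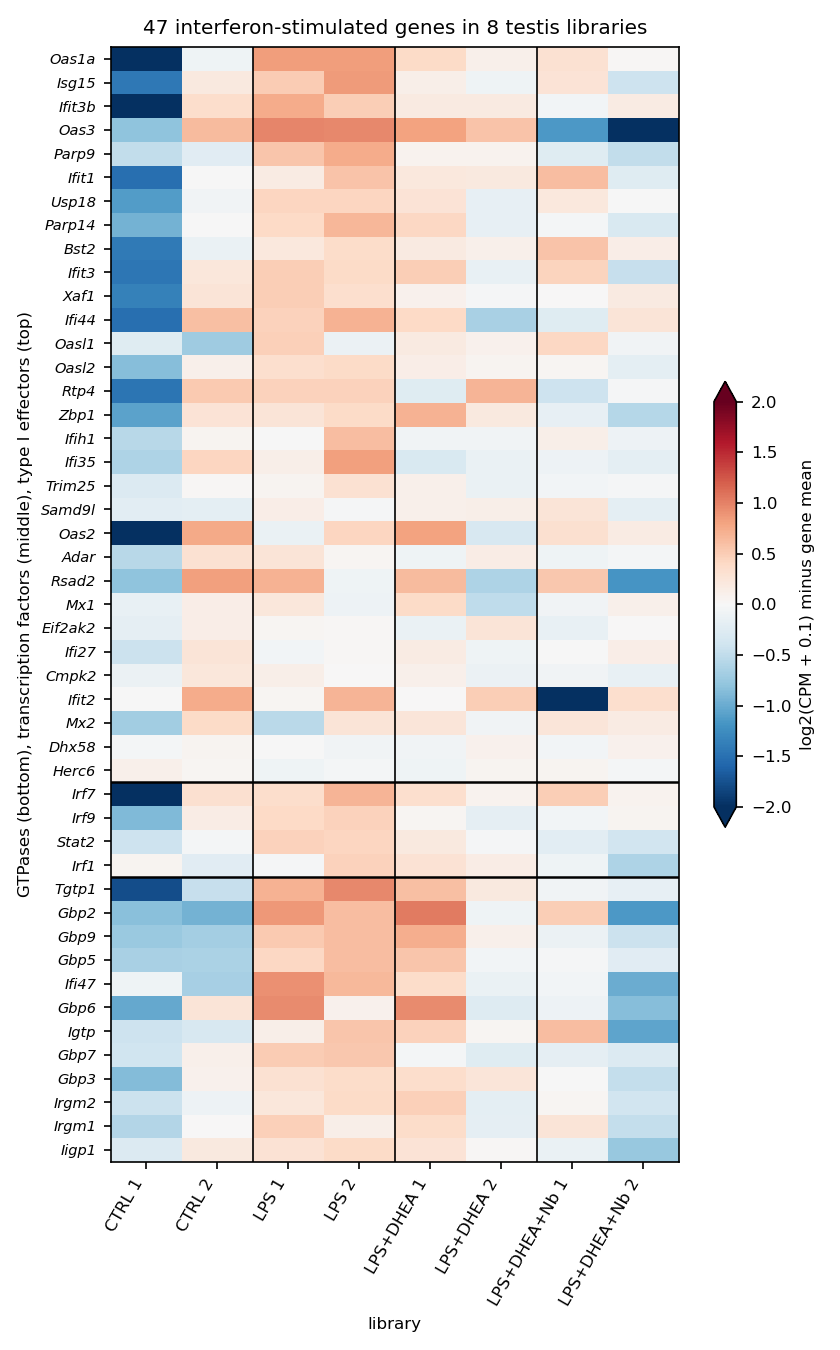
Heat map of the 47 members (rows, by class) in the 8 libraries (columns), as log2(CPM + 0.1) minus the mean of the gene over the libraries, with colours saturated at -2 and 2. CTRL 1 is the lowest library for 34 of the 47 members, and the GTPases as a class are highest in both LPS libraries and in LPS+DHEA 1.

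The signals that could drive these genes were hardly seen as transcripts. Of 19 interferon ligand genes, 13 had 0 counts in all 8 libraries, among them Ifnb1 and 12 alpha genes, which allows a level of up to 0.049 CPM in a library (3 counts, counting error only). That limit takes each count as an independent read. It would be higher if a read added several counts, and small values were multiples of 4 more often than even. Ifng, the gene for interferon gamma, had 8 counts in CTRL 1 and 0 in the other libraries. Ifne had 3 counts in CTRL 2 alone, and Ifnk, Ifnl2 and Ifnl3 had 0 to 14 counts in a library. Ifnab had 5 to 16 counts and was the one ligand that passed the filter, with no call in edgeR in any comparison.

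The receptors were present throughout. Ifnar1 was at 13.9 to 18.3 CPM and Ifnar2 at 4.47 to 7.05 CPM over the 8 libraries, and Ifngr2 at 21.6 to 29.3 CPM. Ifngr1, the ligand-binding chain of the interferon gamma receptor, was at 6.65 and 3.47 CPM in the CTRL libraries, 10.4 and 10.7 with LPS, 10.3 and 11.96 with LPS+DHEA, and 5.95 and 5.27 with LPS+DHEA+Nb. Both LPS and both LPS+DHEA libraries thus lay above the other 4. The log2 fold change of Ifngr1 was 1.06 ± 0.26 (SE) in LPS versus CTRL and -0.99 ± 0.26 in LPS+DHEA+Nb versus LPS+DHEA, and neither passed in edgeR over all genes (adjusted p = 0.211 and adjusted p = 0.568). Without CTRL 1 the first was 1.60 and called (edgeR adjusted p = 0.0204), and without CTRL 2 it was 0.66 (adjusted p = 0.406).

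Levels per kb of exon put type I effectors at both ends of the order. Averaged over the 8 libraries, Dhx58, a helicase of the RIG-I family (LGP2), was highest at 18.3 CPM per kb. Bst2, which tethers budding virus, followed at 15.04 and Ifi27 at 10.5. Herc6, an ISG15 ligase, came next at 3.82 CPM per kb, ahead of the kinase gene Eif2ak2 (PKR) at 3.62. The highest GTPase was Gbp2 at 1.88 CPM per kb in place 12, and the lowest members were Ifi44 at 0.133 and Oas3 at 0.056. With the longest transcript as the length, Dhx58 was at 24.9 and Herc6 at 7.44 CPM per kb.

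**Figure D2:**
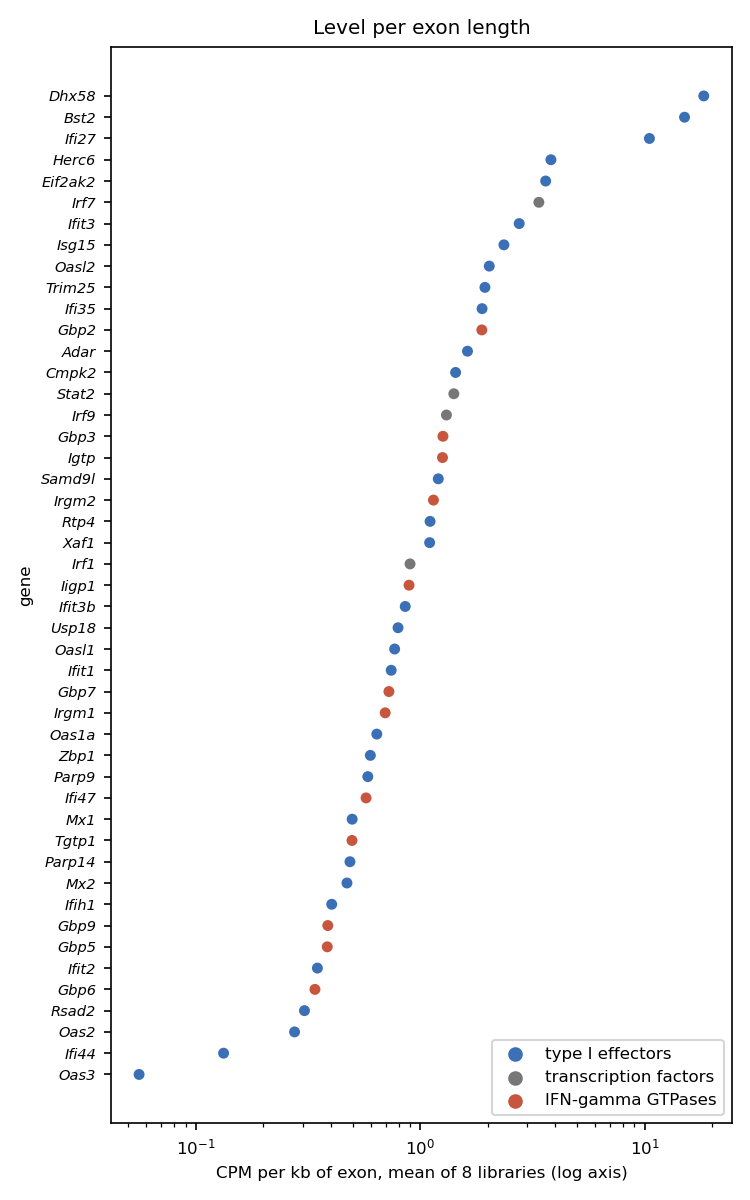
Mean level of each member over the 8 libraries in CPM per kb of exon (log axis), coloured by class and sorted. Dhx58 (18.3), Bst2 (15.04) and Ifi27 (10.5) stand above the rest, and the GTPases lie at 1.88 CPM per kb (Gbp2) and below.

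Of the members highest per kb, Dhx58 and Herc6 varied little over the libraries, while Bst2, described with the type I effectors, did not. Dhx58 was at 58.2 and 62.5 CPM in the CTRL libraries, 59.7 and 57.0 with LPS, 56.9 and 63.8 with LPS+DHEA, and 57.8 and 63.6 with LPS+DHEA+Nb. Herc6 was at 38.0 and 36.4, 33.4 and 34.4, 33.5 and 37.0, and 36.6 and 34.6 CPM in the same order. The groups overlapped for Dhx58, while both LPS libraries were below both CTRL libraries for Herc6. Their log2 fold changes in LPS versus CTRL were -0.05 ± 0.09 (SE) and -0.13 ± 0.09, and edgeR called neither (adjusted p = 0.974 and adjusted p = 0.865). That of Dhx58 was -0.10 without CTRL 1 and 0.004 without CTRL 2. Ifi27 was at 11.3 and 18.3 CPM in CTRL and 14.3 to 17.2 in the other 6 libraries, so that its 2 CTRL libraries were the lowest and the highest of the series. Its log2 fold change in LPS versus CTRL was 0.03 ± 0.20 (edgeR adjusted p = 0.993), with -0.28 without CTRL 1 and 0.42 without CTRL 2.

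LPS versus CTRL asks which genes LPS moved in the testis. No member was called by edgeR at an adjusted p under 0.05, where 78 of the 26414 genes tested were called (0.295%). At an unadjusted p under 0.05 there were 15 of 47 members, against 7.11% of all genes, and DESeq2 called 4 members, against 1.11% of all genes. A positive log2 fold change was seen for 43 of 47 members, with a median of 0.67 where the median of all genes was -0.002. By class the medians were 0.59 for type I effectors (27 of 31 positive), 0.69 for transcription factors (4 of 4) and 0.81 for GTPases (12 of 12). Both LPS libraries were above both CTRL libraries for 15 of 31 type I effectors, 3 of 4 transcription factors and 11 of 12 GTPases, against 18.9% of all genes.

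The classes differed in how far they rest on CTRL 1. Without CTRL 1 the median was 0.15 for type I effectors (18 of 31 positive), 0.38 for transcription factors and 0.57 for GTPases (12 of 12 positive). Without CTRL 2 the medians were 1.23, 1.10 and 1.09. CTRL 2 was at or above the lower LPS library for 16 of 31 type I effectors and 1 of 12 GTPases, against 66.1% of all genes. With CTRL 2 left out, edgeR called 8 members (0.289% of all genes): Ifit3b, Oas1a, Oasl2, Bst2, Xaf1, Irf7, Irf9 and Tgtp1. With CTRL 1 left out it called none (0.263% of all genes), and the sign turned from positive to negative for 9 members, all type I effectors (Adar, Cmpk2, Eif2ak2, Ifi27, Ifi44, Mx1, Oas2, Rsad2 and Rtp4). With CTRL 2 left out it turned from negative to positive for Dhx58, Ifit2 and Mx2. In these fits the lone CTRL library is assumed to vary like the other groups, and the difference between the classes was not tested.

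**Figure D3:**
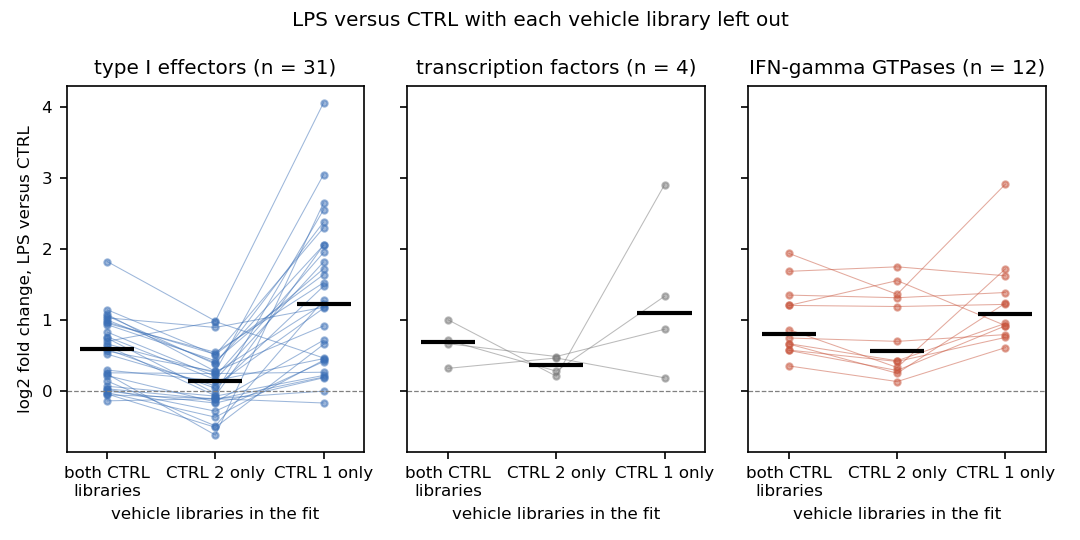
Log2 fold change of each member in LPS versus CTRL with both CTRL libraries, with CTRL 2 only and with CTRL 1 only (thin lines join a gene, black bars are class medians). The median of the type I effectors goes from 0.59 to 0.15 with CTRL 2 only and 1.23 with CTRL 1 only, and that of the GTPases from 0.81 to 0.57 and 1.09.

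Among the transcription factors, Irf7 shows the CTRL difference most plainly. Irf7, a main inducer of the alpha interferon genes, was at 2.16 and 13.9 CPM in the CTRL libraries, 14.4 and 17.96 with LPS, 14.2 and 11.7 with LPS+DHEA, and 15.9 and 11.8 with LPS+DHEA+Nb. CTRL 2 lay among the treated libraries and CTRL 1 far below them. Its log2 fold change in LPS versus CTRL was 1.01 ± 0.87 (SE), with edgeR adjusted p = 0.911. It was 0.21 without CTRL 1 (adjusted p = 0.969) and 2.90 without CTRL 2 (adjusted p = 0.0022), all by edgeR.

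Stat2, a transducer of type I signalling, followed the groups more closely. It was at 6.07 and 7.91 CPM in the CTRL libraries, 11.2 and 11 with LPS, 9.36 and 8.00 with LPS+DHEA, and 7.07 and 6.21 with LPS+DHEA+Nb. Both LPS libraries were above the other 6, and the LPS+DHEA+Nb libraries lay below the LPS+DHEA libraries and within the CTRL range. The log2 fold changes were 0.67 ± 0.18 (SE) in LPS versus CTRL, -0.36 ± 0.17 in LPS+DHEA versus LPS and -0.74 ± 0.18 in LPS+DHEA+Nb versus LPS (edgeR adjusted p = 0.251, adjusted p = 1 and adjusted p = 0.228). DESeq2 called the last of these (adjusted p = 0.0452, up to 0.695 over the alternatives, against 0.784% of all genes called).

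Irf9, the DNA-binding part of the same complex, was at 3.66 and 7.58 CPM in the CTRL libraries, 9.05 and 9.44 with LPS, 7.01 and 5.97 with LPS+DHEA, and 6.55 and 7.08 with LPS+DHEA+Nb. Its LPS libraries were the highest, with a log2 fold change of 0.72 ± 0.28 (SE) over CTRL and edgeR adjusted p = 0.629. That fold was 0.28 without CTRL 1 (adjusted p = 0.951) and 1.34 without CTRL 2 (adjusted p = 0.0489, called by edgeR). Irf1, which acts downstream of interferon gamma, was at 3.63 and 2.99, 3.43 and 4.85, 4.29 and 3.89, and 3.31 and 2.24 CPM in the same order of groups. Its CTRL and LPS libraries overlapped, with a log2 fold change of 0.32 ± 0.26 and edgeR adjusted p = 0.889 (0.47 without CTRL 1 and 0.19 without CTRL 2).

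The GTPases had low and close values in the 2 CTRL libraries for several members. Gbp5 was at 1.502 and 1.53 CPM in the CTRL libraries, 3.26 and 3.76 with LPS, 3.62 and 2.34 with LPS+DHEA, and 2.38 and 2.05 with LPS+DHEA+Nb. Gbp9 was at 1.07 and 1.13, 2.72 and 2.90, 3.13 and 2.00, and 1.72 and 1.36 CPM in the same order. For both genes every treated library was above both CTRL libraries. In LPS versus CTRL the log2 fold change was 1.21 ± 0.28 (SE) for Gbp5 and 1.35 ± 0.31 for Gbp9 (edgeR adjusted p = 0.166 and adjusted p = 0.157), and DESeq2 called both (adjusted p = 0.0493 and adjusted p = 0.0485). Leaving out either CTRL library moved these folds little, to 1.19 and 1.22 for Gbp5 and to 1.32 and 1.39 for Gbp9. Over all alternatives the adjusted p was 0.0493 to 0.531 for Gbp5 and 0.0485 to 0.526 for Gbp9.

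Gbp2, a guanylate-binding protein that gathers on the vacuoles of intracellular pathogens, varied widely inside the 2 groups given DHEA. It was at 2.24 and 2.05 CPM in the CTRL libraries, 7.51 and 6.30 with LPS, 8.42 and 3.83 with LPS+DHEA, and 5.71 and 1.77 with LPS+DHEA+Nb. The LPS libraries were both far above CTRL, but LPS+DHEA+Nb 1 was high and LPS+DHEA+Nb 2 was below CTRL. The log2 fold change in LPS versus CTRL was 1.69 ± 0.62 (SE), with edgeR adjusted p = 0.647. DESeq2 called it (adjusted p = 0.0138), and so did edgeR with only the 2 groups in the fit (adjusted p = 0.0251, with 0.292% of all genes called). Over all alternatives its adjusted p was 0.0138 to 0.952.

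Tgtp1, an immunity-related GTPase first found in T cells, was at 0.336 and 0.985 CPM in the CTRL libraries, 2.30 and 2.78 with LPS, 2.16 and 1.60 with LPS+DHEA, and 1.32 and 1.23 with LPS+DHEA+Nb. The 4 groups did not overlap and descended in the order LPS, LPS+DHEA, LPS+DHEA+Nb, CTRL. Its log2 fold change in LPS versus CTRL was 1.94 ± 0.45 (SE), with edgeR adjusted p = 0.168 and DESeq2 adjusted p = 0.0134 (up to 0.466 over the alternatives). It was 1.36 without CTRL 1 and 2.91 without CTRL 2. Of its 75-base windows, 77.2% also occur in transcripts of another gene, 74.6% in Tgtp2, so the counts of this pair may be shared.

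The other GTPases leaned the same way, with less contrast except in Ifi47, whose log2 fold change was close to that of Gbp5. Gbp7 was at 2.96 and 4.25 CPM in the CTRL libraries, 5.67 and 5.81 with LPS, 3.83 and 3.32 with LPS+DHEA, and 3.46 and 3.23 with LPS+DHEA+Nb, so that its LPS libraries stood above all others. Ifi47 was at 1.22 and 0.782, 2.52 and 2.10, 1.71 and 1.18, and 1.24 and 0.599 CPM. Gbp3 was at 2.13 and 4.20, 4.93 and 5.12, 5.09 and 4.73, and 3.93 and 2.81 CPM. Their LPS libraries were above both CTRL libraries, with log2 fold changes of 0.67 ± 0.23 (SE) for Gbp7, 1.21 ± 0.41 for Ifi47 and 0.67 ± 0.30 for Gbp3 (edgeR adjusted p = 0.491, adjusted p = 0.513 and adjusted p = 0.700). Without CTRL 1 the folds of Gbp7 and Gbp3 were 0.43 and 0.25, and without CTRL 2 that of Gbp3 was 1.24.

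Igtp (Irgm3) and Irgm2 belong to the IRGM proteins, which hold the effector GTPases in check on the membranes of the host cell, and their annotated exons overlap by 162 bases on the same strand. Igtp was at 1.76 and 1.88 CPM in the CTRL libraries, 2.60 and 3.52 with LPS, 3.30 and 2.45 with LPS+DHEA, and 3.71 and 1.09 with LPS+DHEA+Nb. Irgm2 was at 3.02 and 3.81, 4.82 and 5.41, 5.77 and 3.58, and 4.25 and 3.12 CPM. Iigp1, an effector of the same family, was at 4.17 and 5.80, 6.17 and 6.61, 6.12 and 5.12, and 4.56 and 2.93 CPM. The LPS libraries were above CTRL for all of these, and the lowest Igtp and Iigp1 values of the series were in LPS+DHEA+Nb 2. The log2 fold change in LPS versus CTRL was 0.75 for Igtp, 0.58 for Irgm2 and 0.36 for Iigp1. None of these was called by edgeR (adjusted p = 0.843, adjusted p = 0.707 and adjusted p = 0.858). The fold of Iigp1 was 0.14 without CTRL 1 and 0.61 without CTRL 2. The remaining pair, Gbp6 and Irgm1, had log2 fold changes of 0.87 and 0.58 in LPS versus CTRL (lowest edgeR adjusted p = 0.789), which were 0.34 and 0.29 without CTRL 1 and 1.72 and 0.92 without CTRL 2. Gbp6 shares 67.3% of its windows with other genes, mostly Gm43302, so its counts are uncertain.

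**Figure D4:**
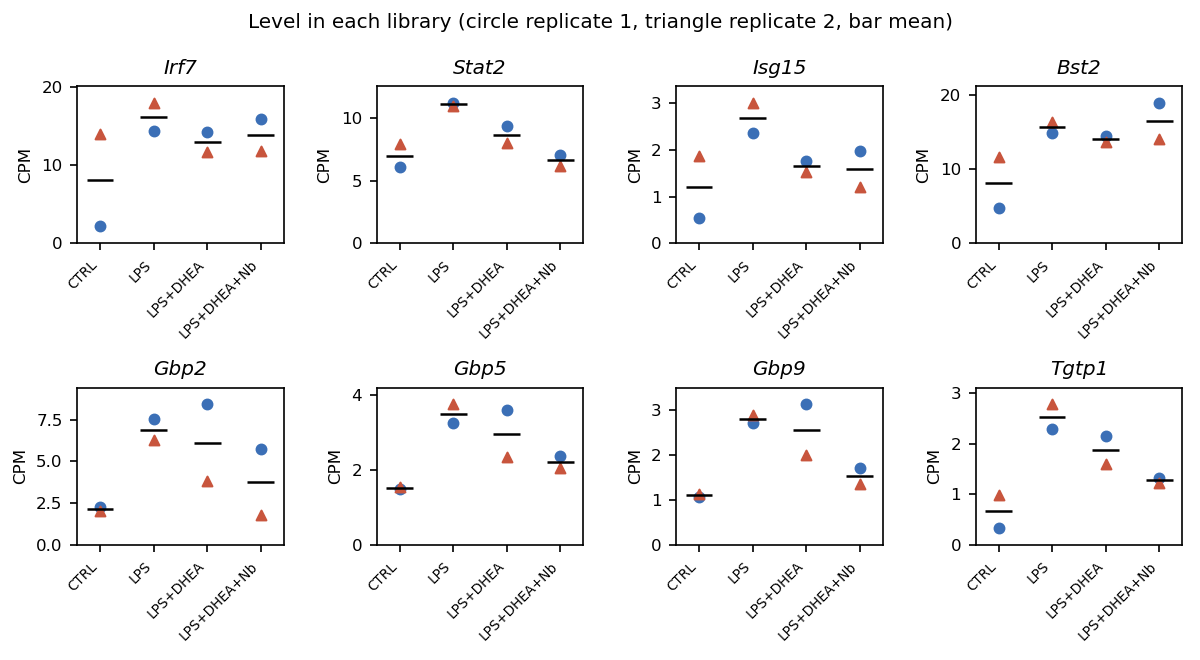
CPM of 8 members in each library (circle replicate 1, triangle replicate 2, bar the mean of the 2 libraries) by group. Irf7, Isg15, Bst2 and the GTPase gene Tgtp1 differ widely between the CTRL libraries, and Stat2 less so. Gbp5 and Gbp9 are at 1.07 to 1.53 CPM in both CTRL libraries and above that in every LPS library.

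Type I effectors are described by role. The IFIT genes, whose proteins bind foreign RNA, and the OAS genes carried the widest differences between the vehicle libraries. The OAS family includes enzymes that make the messenger that activates RNase L. After 0.1 CPM was added to each value, CTRL 2 was at 1.68 to 5.34 times CTRL 1 for the 4 IFIT genes. For the 5 OAS genes it was at 0.717 to 6.72 times CTRL 1. The added 0.1 CPM makes the ratio smaller than that of the plain CPM for genes as low as Oas1a. The median log2 fold changes of the IFIT and OAS genes in LPS versus CTRL were 0.92 (3 of 4 positive) and 0.70 (5 of 5). Without CTRL 1 the folds ranged from -0.36 to 0.40 for IFIT and from -0.61 to 0.99 for OAS genes. Without CTRL 2 they ranged from 0.44 to 3.05 and from 0.47 to 4.06. Oas1a was at 0.112 and 0.953 CPM in the CTRL libraries, 1.89 and 1.90 with LPS, 1.36 and 1.10 with LPS+DHEA, and 1.29 and 1.04 with LPS+DHEA+Nb. All treated libraries were above both CTRL libraries, and the log2 fold change in LPS versus CTRL was 1.83 ± 0.71 (SE) with edgeR adjusted p = 0.633. It was 0.99 without CTRL 1 (adjusted p = 0.848) and 4.06 without CTRL 2 (adjusted p = 0.0162, called by edgeR). Oasl2 was at 6.89 and 13.5, 15.9 and 16.5, 13.7 and 13.0, and 12.9 and 10.96 CPM. It too was highest in LPS, at a log2 fold change of 0.67 ± 0.26 (edgeR adjusted p = 0.647), which was 0.26 without CTRL 1 and 1.23 without CTRL 2 (adjusted p = 0.0224, called by edgeR). Ifit3 and Ifit3b share 41.1% and 35.7% of their windows with each other, and Oas1a shares 47.6% with Oas1g, so their counts are uncertain.

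Of the genes around ISG15, a ubiquitin-like protein that is attached to other proteins, 3 of 4 had positive folds in LPS versus CTRL. Isg15 was at 0.543 and 1.88 CPM in the CTRL libraries, 2.36 and 3.01 with LPS, 1.77 and 1.52 with LPS+DHEA, and 1.98 and 1.199 with LPS+DHEA+Nb. Usp18, which removes ISG15 and restrains the type I receptor, was at 0.927 and 2.02, 2.90 and 2.90, 2.57 and 1.88, and 2.47 and 2.10 CPM. In both genes the LPS libraries were highest and CTRL 1 lowest. Their log2 fold changes were 1.15 ± 0.50 (SE) and 0.98 ± 0.36 (edgeR adjusted p = 0.686 and adjusted p = 0.559). Both were 0.52 without CTRL 1, and without CTRL 2 they were 2.30 for Isg15 and 1.64 for Usp18, with no call by edgeR.

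Parp9 and Parp14, which act in ADP-ribosylation and interferon signalling, had the smallest p of the type I effectors in LPS versus CTRL. Parp9 was at 1.90 and 2.31 CPM in the CTRL libraries, 4.05 and 4.59 with LPS, 2.85 and 2.85 with LPS+DHEA, and 2.28 and 1.91 with LPS+DHEA+Nb. Its LPS libraries were above all others and its LPS+DHEA+Nb libraries lay in the CTRL range. The log2 fold change was 1.03 ± 0.24 (SE) in LPS versus CTRL, -0.60 ± 0.23 in LPS+DHEA versus LPS and -1.04 ± 0.24 in LPS+DHEA+Nb versus LPS (edgeR adjusted p = 0.168, adjusted p = 1 and adjusted p = 0.210). Parp14 was at 2.17 and 4.28, 5.70 and 6.85, 5.73 and 3.81, and 4.19 and 3.44 CPM, with a log2 fold change of 0.96 ± 0.32 in LPS versus CTRL (edgeR adjusted p = 0.491), which was 0.55 without CTRL 1 and 1.53 without CTRL 2. Parp9 shares 458 bases of exon with Dtx3l on the opposite strand, and the sources used here do not state the strand setting of the counting.

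Bst2 was at 4.73 and 11.6 CPM in the CTRL libraries, 14.9 and 16.4 with LPS, 14.4 and 13.7 with LPS+DHEA, and 19.0 and 14.0 with LPS+DHEA+Nb. All 6 treated libraries were above both CTRL libraries, and LPS+DHEA+Nb 1 was the highest. The log2 fold change was 0.94 ± 0.41 (SE) in LPS versus CTRL and 1.02 ± 0.41 in LPS+DHEA+Nb versus CTRL (edgeR adjusted p = 0.728 and adjusted p = 1). Without CTRL 1 these were 0.43 and 0.51, and without CTRL 2 they were 1.72 and 1.80, both then called by edgeR (adjusted p = 0.0108 and adjusted p = 0.0171). A group of genes for proteins that bind nucleic acid (Ifih1, Dhx58, Zbp1, Eif2ak2 and Adar) had a median of 0.22 in LPS versus CTRL. In the same comparison the pair Mx1 and Mx2 had 0.07 and -0.04. Without CTRL 1 the nucleic acid group ranged from -0.15 to 0.28, and Mx1 and Mx2 had -0.07 and -0.51. Without CTRL 2 the nucleic acid group ranged from 0.004 to 1.48, and Mx1 and Mx2 had 0.22 and 0.66. The 19 type I effectors not chosen for values of every library had a median of 0.30 in LPS versus CTRL, with 17 positive. Their lowest edgeR adjusted p was 0.711. Their folds ranged from -0.61 to 0.98 without CTRL 1 and from 0.19 to 3.05 without CTRL 2.

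LPS+DHEA versus LPS asks what DHEA did once LPS had been given. No member was called by edgeR, where 5 of the genes tested were called (0.0189%), nor by DESeq2 (0.133% of all genes). An unadjusted p under 0.05 was reached by 2 members, against 3.51% of all genes. A negative log2 fold change was seen for 39 of 47 members, with a median of -0.18 for type I effectors, -0.34 for transcription factors and -0.18 for GTPases (12 of 12 negative), beside 0.003 for all genes. Both LPS+DHEA libraries were below both LPS libraries for 19 of 47 members, against 15.7% of all genes, and for 4 of 12 GTPases. The members with the smallest p were Gbp7 (-0.68 ± 0.23, SE), Parp9 and Ifi35 (-0.75 ± 0.35), each with edgeR adjusted p = 1. Ifi35, an interferon-induced leucine zipper protein, was at 1.98 and 4.22 CPM in the CTRL libraries, 3.37 and 5.55 with LPS, 2.50 and 2.81 with LPS+DHEA, and 2.90 and 2.70 with LPS+DHEA+Nb.

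The 2 LPS+DHEA libraries disagreed over the GTPases. All 12 were higher in LPS+DHEA 1 than in LPS+DHEA 2, by 1.435-fold in the median, while replicate 2 was the higher for 48.9% of all genes, and their summed level was 51.8 and 35.1 CPM, beside 51.6 and 50.5 CPM in LPS. The GTPase median was -0.55 without LPS+DHEA 1 and 0.05 without LPS+DHEA 2, so its direction depends on which library is kept. Neutrophil markers differed in the same way between these libraries, at a sum of 5.68 CPM in LPS+DHEA 1 and 2.68 in LPS+DHEA 2. In LPS 1 and LPS 2, where the GTPase sums were close, neutrophil markers summed to 6.42 and 3.93 CPM. The part of neutrophils in the result was not tested.

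LPS+DHEA+Nb versus LPS+DHEA asks what Nb23-bi added to DHEA. No member was called by edgeR, where 23 genes were called (0.0871%), nor by DESeq2 (0.439% of all genes), and 3 members had an unadjusted p under 0.05, against 4.4% of all genes. The type I effectors were centred near 0, with a median of -0.065 and 18 of 31 negative, while all 12 GTPases were negative with a median of -0.55. For 4 of the 12 both LPS+DHEA+Nb libraries were below both LPS+DHEA libraries, against 17.1% of all genes. Gbp9 (-0.74 ± 0.30, SE) and Iigp1 (-0.58 ± 0.25) had the smallest p among the GTPases, both with edgeR adjusted p = 1. The GTPase median ranged from -0.13 without LPS+DHEA 1 to -0.85 without LPS+DHEA+Nb 1, and was -0.71 without LPS+DHEA 2 and -0.25 without LPS+DHEA+Nb 2. All 12 were also higher in LPS+DHEA+Nb 1 than in LPS+DHEA+Nb 2 (replicate 2 was the higher for 49.8% of all genes), and their summed level was 38.7 and 23.9 CPM. Neutrophil markers summed to 1.04 and 1.56 CPM in these libraries, an order that rests on Csf3r at 0.299 and 1.28 CPM. S100a9 went the other way, at 0.504 and 0.126 CPM. Of the 6 neutrophil markers tested, 3 were higher in LPS+DHEA+Nb 2. The difference between the classes was not tested.

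LPS+DHEA+Nb versus LPS sets the full treatment against LPS alone and shares its libraries with the comparisons above. No member was called by edgeR, where 45 genes were called (0.17%), and 10 members had an unadjusted p under 0.05, against 6.56% of all genes. DESeq2 called Stat2 and Oas3, against 0.784% of all genes. Log2 fold changes were negative for 41 of 47 members, with medians of -0.33 for type I effectors (25 of 31 negative), -0.51 for transcription factors and -0.77 for GTPases (12 of 12). Both LPS+DHEA+Nb libraries were below both LPS libraries for 17 of 31 type I effectors, 3 of 4 transcription factors and 10 of 12 GTPases, against 18.6% of all genes. The GTPase median was -1.04 without LPS+DHEA+Nb 1 and -0.52 without LPS+DHEA+Nb 2. Ifi47 had -1.32 ± 0.42 (SE), Tgtp1 -0.99 ± 0.43 and Gbp9 -0.87 ± 0.30 (edgeR adjusted p = 0.495, adjusted p = 0.745 and adjusted p = 0.597).

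**Figure D5:**
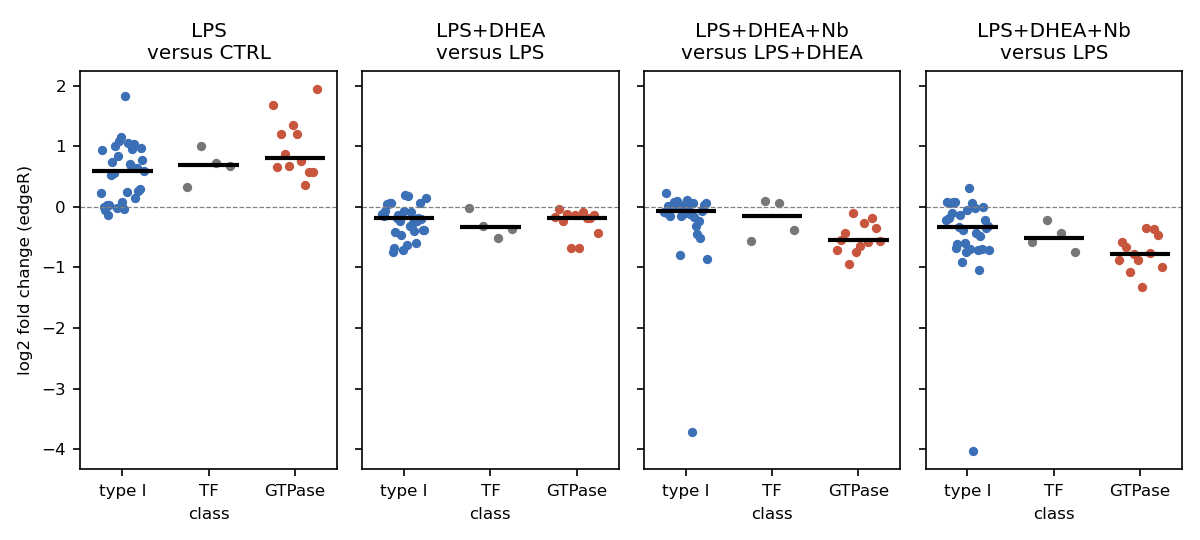
Log2 fold changes from edgeR of the members in 4 comparisons, by class (points are genes, black bars medians; TF, transcription factors). All 12 GTPases are above 0 in LPS versus CTRL (median 0.81) and below 0 in the other 3 comparisons (medians -0.18, -0.55 and -0.77), and the isolated low point is Oas3.

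Oas3, the largest of the oligoadenylate synthetases, stood apart from the rest in the LPS+DHEA+Nb group. Its counts were 8 and 33 in the CTRL libraries, 43 and 42 with LPS, 38 and 30 with LPS+DHEA, and 5 and 0 with LPS+DHEA+Nb. Both libraries with Nb23-bi were therefore below all 6 others. Its fitted log2 fold change in LPS+DHEA+Nb versus LPS was -4.03 ± 1.08 (SE), with edgeR adjusted p = 0.338 and DESeq2 adjusted p = 0.0399 (up to 0.687 over the alternatives), and at so few counts the fitted size depends on the prior count. Oas2 and Oas1a, which lie in the same cluster on chromosome 5, were measured in the same libraries. With LPS+DHEA+Nb they were at 1.35 and 1.199 CPM and at 1.29 and 1.04 CPM, against 1.93 and 0.834 CPM and 1.36 and 1.10 CPM with LPS+DHEA.

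Against CTRL, the class medians of both groups given DHEA were above 0 with both CTRL libraries, but not in every class without CTRL 1. In LPS+DHEA versus CTRL edgeR called no member (0.151% of all genes were called), DESeq2 called none (0.693%), and 4 members, all of them GTPases, had an unadjusted p under 0.05, against 5.72% of all genes. The class medians were 0.38, 0.31 and 0.65 for type I effectors, transcription factors and GTPases, and Gbp9 had a log2 fold change of 1.22 ± 0.31 (SE) with edgeR adjusted p = 0.333. Without CTRL 1 the medians were -0.07 (10 of 31 positive), 0.009 (2 of 4) and 0.45 (10 of 12), and without CTRL 2 they were 0.96, 0.67 and 0.86. In LPS+DHEA+Nb versus CTRL edgeR again called no member (0.0303% of all genes), DESeq2 called none (0.288%), and 2 members had an unadjusted p under 0.05, against 4.28% of all genes. The class medians there were 0.13, 0.10 and 0.16, and the GTPase median was -0.20 without LPS+DHEA+Nb 1 and 0.43 without LPS+DHEA+Nb 2. Without CTRL 1 the medians were -0.18, -0.13 and 0.09, with 12 of 47 members positive, and without CTRL 2 they were 0.77, 0.52 and 0.54. With CTRL 2 left out, edgeR called Bst2 and Irf7 in both comparisons (0.142% and 0.0962% of all genes).

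Genes around the members were read from lists of the same pathway. In LPS versus CTRL edgeR called 1 of 16 receptor and JAK-STAT genes higher, which was Socs3, the feedback inhibitor of cytokine receptors (log2 fold change 2.35 ± 0.31, SE, adjusted p = 0.00936). It was at 1.28 and 0.907 CPM in CTRL and at 4.68 and 6.46 CPM in LPS, and without CTRL 2 the call was lost (adjusted p = 0.0740 in edgeR). None of 18 sensing genes was called, with Irf8 (1.01 ± 0.23) and the kinase gene Ikbke (1.35 ± 0.34) having the smallest p (edgeR adjusted p = 0.168 and adjusted p = 0.219). Of 41 tested genes on a list of other interferon-induced genes 1 rose, Serping1, the inhibitor of complement C1, from 26.7 and 25.95 CPM in CTRL to 50.5 and 62.4 CPM in LPS (1.10 ± 0.15, edgeR adjusted p = 0.0133). Without CTRL 1 or without CTRL 2, Serping1 was not called (edgeR adjusted p = 0.0970 and adjusted p = 0.120). That list had a median of 0.30 with 30 of 41 positive. In LPS+DHEA versus LPS, LPS+DHEA+Nb versus LPS+DHEA and LPS+DHEA+Nb versus LPS, edgeR called none of the genes on these lists.

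Markers of other cells were set beside the members. Neutrophil markers summed to 0.828 to 1.14 CPM in CTRL, 3.93 to 6.42 in LPS, 2.68 to 5.68 in LPS+DHEA and 1.04 to 1.56 in LPS+DHEA+Nb. These ranges overlapped between LPS and LPS+DHEA and between LPS+DHEA+Nb and CTRL. The second overlap rests on Csf3r, which made up most of the CTRL sums at 1.14 and 0.688 CPM. With LPS+DHEA+Nb it was at 0.299 and 1.28 CPM. Of 9 neutrophil markers, 6 to 8 were at 0 in a CTRL library and 2 to 3 in an LPS library. S100a8 rose in LPS versus CTRL (0 and 0 against 81 and 49 counts, edgeR adjusted p = 0.0237, and adjusted p = 0.0970 or adjusted p = 0.103 without CTRL 1 or CTRL 2), while Ly6g, a defining neutrophil gene, had 5 counts in LPS+DHEA+Nb 1 and 0 in the other 7 libraries. Macrophage markers summed to 77.2 to 96.3 CPM over the 8 libraries, lowest in CTRL 1, with Mrc1 and Lyz2 the largest parts. Single genes of that list moved apart: Itgam, an integrin chain of macrophages and neutrophils, was at 0.448 and 0.672 CPM in the CTRL libraries, 9.18 and 2.82 with LPS, 10.6 and 7.39 with LPS+DHEA, and 1.05 and 2.51 with LPS+DHEA+Nb. Fcgr1 had a log2 fold change of 1.06 in LPS versus CTRL, Csf1r of -0.90 and Cx3cr1 of -1.35, and edgeR called none of these or Itgam (lowest adjusted p = 0.133). Without LPS 2, Itgam was called (edgeR adjusted p = 0.0368). T and NK cell markers summed to 3.64 to 7.80 CPM, highest in CTRL 1. Endothelial markers summed to 55.98 and 51.97 CPM in the CTRL libraries and to 59.25 to 72.9 CPM in the treated libraries. Of 10 endothelial markers, 8 had a positive log2 fold change in LPS versus CTRL, with a median of 0.22 and no call by edgeR. Sertoli cell markers summed to 978 to 1278 CPM and peritubular myoid markers to 382 to 485 CPM. In both of these lists the sums of the LPS and LPS+DHEA libraries lay above those of the CTRL and LPS+DHEA+Nb libraries. Clu was the largest part of the Sertoli sums and Actg2 of the myoid sums. Acta2, a smooth muscle actin of the myoid list, rose in LPS versus CTRL (1.10 ± 0.10, SE, edgeR adjusted p = 0.000737) and fell in LPS+DHEA+Nb versus LPS (-0.92 ± 0.10, edgeR adjusted p = 0.00443), and Cd163 of the macrophage list fell in the latter (-2.95 ± 0.45, edgeR adjusted p = 0.0318, and adjusted p = 0.0939 or adjusted p = 0.111 without LPS 1 or LPS+DHEA+Nb 1). Leydig cell markers summed to 882 to 1035 CPM in CTRL, 708 to 738 in LPS, 638 to 658 in LPS+DHEA and 836 to 957 in LPS+DHEA+Nb, with no marker called by edgeR in LPS versus CTRL. Insl3 was the largest part, at 551.5 and 597 CPM in CTRL and 544.5 and 575 CPM in LPS. Cyp17a1 was at 105.5 and 155.5 CPM in CTRL and at 44.2 and 17.4 CPM in LPS. The median log2 fold change of the list in LPS versus CTRL was -0.88, with 1 of 8 positive. CTRL 1 and CTRL 2 had like sums for macrophages (77.2 and 80.3 CPM) and dendritic cells (20.4 and 20.9 CPM), but within the macrophage list Cd68 was at 2.22 and 5.35 CPM and Fcgr1 at 0.623 and 1.38 CPM. Between the same libraries 7 of 8 Leydig markers were higher in CTRL 2, by 1.39-fold in the median over the list, and T and NK cell markers summed to 7.80 CPM in CTRL 1 and 5.52 CPM in CTRL 2. The part of these cells in the values of the members was not tested.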

How the data were processed

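RNA-seq of mouse testis gave 8 libraries in 4 groups of 2, grouped by the titles in the labels. Library preparation used the KAPA Stranded kit, per the labels' protocols. The protocol for RNA extraction mentions islets, but the tissue label is testis and was followed. Per the submitters' processing notes, HISAT and featureCounts 1.5.0-p3 were used on GRCm38, with no role, strand setting or handling of multiple matches stated. The values the authors deposited were taken as estimated counts (expected counts) per gene, not normalized: they are whole numbers, but 33.5% of values from 1 to 40 are multiples of 4, where 25% would be even. Count tests had been planned, and the values, already whole, entered them without rounding.

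Genes were filtered with filterByExpr (minimum count 10, minimum total 15), scaled by TMM (factors 0.985 to 1.015) and fitted with 4 group means by the quasi-likelihood test of edgeR 4.0.16 (glmQLFit, robust, 4 residual degrees of freedom) in R 4.3.3. Benjamini-Hochberg adjustment ran over the 26414 genes of each of the 6 comparisons, with calls at an adjusted p under 0.05. CPM uses TMM-scaled library sizes. Groups that share libraries give comparisons that are not independent. Gene symbols, positions and exon lengths came from GENCODE M21 and promoters from RefSeq (GRCm38.p6). Sequence sharing is the share of 75-base windows of a gene's transcripts that occur in another gene's transcripts. Of these steps, the edgeR fit was tested on simulated counts with known changes, read in LPS versus CTRL.

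The members and lists were chosen with earlier results of these data known. Values of every library are given for the 4 transcription factors, for the 6 members with the smallest p in LPS versus CTRL and the 4 highest per kb in each other class, for the 3 with the smallest p in each other comparison and for any member called. The text names part of the pathway genes. Alternatives were DESeq2 size factors, library size alone, other filters, DESeq2 1.42.0, limma-voom (limma 3.58.1), a fit of only the 2 groups at hand, a block for the replicate number, a threshold of 0.1, counts divided by 4, each library left out, members with shared sequence left out, and the longest transcript as the length.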

Additional observations from a re-analysis of the deposited data

How the results depend on the processing

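The count of members called by edgeR was 0 in every comparison. It was 4 in LPS versus CTRL and 2 in LPS+DHEA+Nb versus LPS with DESeq2, and 1 in LPS versus CTRL with only the 2 groups compared. Over the fits that leave out 1 library each, the count ranged from 0 to 8 in LPS versus CTRL, from 0 to 2 in LPS+DHEA versus CTRL and from 0 to 2 in LPS+DHEA+Nb versus CTRL, each highest without CTRL 2. The median log2 fold change of the members ranged in these fits from 0.28 (without CTRL 1) to 1.22 (without CTRL 2) in LPS versus CTRL, from -0.031 to 0.86 in LPS+DHEA versus CTRL, and from -0.156 to 0.56 in LPS+DHEA+Nb versus CTRL. The sign turned without CTRL 1 for 9 members in LPS versus CTRL, 18 in LPS+DHEA versus CTRL and 21 in LPS+DHEA+Nb versus CTRL, and without CTRL 2 for 3, 6 and 10. Among members given in every library, it turned in LPS versus CTRL for Dhx58 without CTRL 2 (0.004, the highest of a range from -0.10) and for Ifi27 without CTRL 1 (-0.28) and without LPS 2 (-0.007), in a range up to 0.42. With the replicate number of the titles as a block, the count of members called was 0 in all 6 comparisons, and the GTPase median in LPS versus CTRL was 0.75. Over all genes tested, libraries with the same number did not deviate together (correlations of -0.033 to 0.031 between groups). A correlation over so many genes does not describe a set as small as the members. All 12 GTPases were higher in replicate 1 in LPS+DHEA and in LPS+DHEA+Nb, whereas 8 of 12 were higher in replicate 2 in LPS and 10 of 12 in CTRL. Whether the number marks a shared step was not tested. With 2 libraries per group and few counts for genes such as Oas3, moderate differences could be missed.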
